A study of Mus musculus with 9 samples.

Results

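All kidneys that carried Cre recombinase were compared with all kidneys that did not: 6 Cre-positive RNA-seq libraries against 3 Cre-negative ones, which together are all 9 libraries of the series. Members were chosen from the genotype labels alone. Cre-negative kidneys (group AngII) were homozygous for a floxed Tmem allele. The first Cre-positive group, CDH16KO-AngII, was homozygous for that allele and carried CDH16 Cre. The second, GRPR-AngII, carried CDH16 Cre with a homozygous floxed GRPR allele. Every animal had received AngII, angiotensin II, the peptide hormone that constricts vessels and raises blood pressure, so nothing here measures AngII itself. Each group had 3 libraries, made from whole kidney. Neither the labels nor the series text give age, sex, time on AngII or whether each library is a separate animal, so p-values measure only the spread between these libraries. All Cre-negative libraries came from the floxed Tmem line, with no floxed GRPR control among them, so that the presence of Cre, the deleted gene and the background of a line cannot be told apart.

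Cre recombinase joins DNA across a pair of loxP sites and so removes what lies between them. CDH16 Cre is driven by the promoter of Cdh16, which codes for the kidney-specific cadherin of tubule epithelium, so recombination is limited to epithelial cells while the RNA here came from the whole organ. A shift that both Cre-positive lines share against Cre-negative kidneys is of interest because a line may carry, beside its deleted gene, the Cre transgene and the strain background around it.

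Cdh16 itself had FPKM values (fragments per transcript length and library size) of 165, 172 and 144 in AngII, 131, 158 and 144 in CDH16KO-AngII and 114, 156 and 111 in GRPR-AngII. These ranges overlapped, and the pooled log2 fold change was -0.19 with a standard error (SE) of 0.14 (edgeR adjusted p = 0.670). The series title names STING and ACSL4. Sting1, which codes for the innate immune adaptor STING, fell under the level needed for testing, with 2.48 ± 0.384 CPM (counts scaled to library size) in the 6 Cre-positive and 3.90 ± 1.88 CPM in the 3 Cre-negative libraries (SD; exact two-sided permutation test, p = 0.167, where 84 splits allow no p under 0.0238). By library, Sting1 had 4.62, 1.77 and 5.33 CPM in AngII, 2.15, 2.24 and 2.04 in CDH16KO-AngII and 2.90, 2.90 and 2.68 in GRPR-AngII. AngII library 2 lay below every Cre-positive library. Acsl4, an enzyme that attaches polyunsaturated fatty acids to coenzyme A, had a pooled log2 fold change of -0.25 (SE 0.16, edgeR adjusted p = 0.645). No row carried the symbol Grpr, and that gene is not analysed here.

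Library totals ran from 40731748 to 60449117 counts, with an FPKM of 1 or more for 11456 to 12276 genes. The share of mitochondria-coded genes was 21.5% ± 3.94 in Cre-positive and 18.7% ± 2.40 in Cre-negative libraries (SD, n = 6 and 3, exact permutation test, p = 0.310). Libraries stood apart by Nnt, a mitochondrial transhydrogenase for which the table lists 2 gene models. The second model took 93.5% and 95.8% of Nnt counts in AngII libraries 1 and 2, 34.1% and 44.0% in CDH16KO-AngII libraries 1 and 2, 19.8% in GRPR-AngII library 2 and 0% in the other 4. Results below are therefore also given without AngII libraries 1 and 2 where this moved a call. Kidney segment genes were expressed in every group: the proximal phosphate carrier Slc34a1 averaged 1037, 704 and 962 FPKM in the groups in the order above, and Umod of the thick ascending limb 670, 621 and 503 FPKM.

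The pooled contrast gave both Cre-positive groups equal weight and tested the 12507 genes that had 3 or more libraries at an FPKM of 1 or above. Col6a6 and Ndufa12-ps rose in Cre-positive kidneys at an adjusted p under 0.05 with edgeR's quasi-likelihood test, which is 0.016% of the genes tested, and no gene fell (0%). At an unadjusted p under 0.05 there were 1067 genes (8.53%), with 546 higher (4.37%) and 521 lower (4.17%). DESeq2 called 95 genes (0.76%), 61 of them higher and 34 lower. The median log2 fold change of all tested genes was 0.00, and 50.1% of genes had a positive one. In a second, test-free count, 401 genes (3.21%) had all 6 Cre-positive FPKM values on one side of all 3 Cre-negative values: 125 were higher (0.999%) and 276 lower (2.21%). Of the 84 ways to split the libraries into 6 and 3, a share of 0.0238 separates a gene's values in this way. A lack of overlap alone is therefore weak evidence of a shared shift. Of those 401 genes, 0 were called between the Cre-positive lines, where 18 of all genes were called (0.144%). Each line alone against the shared AngII libraries gave 21 calls (0.168%) for CDH16KO-AngII and 0 (0%) for GRPR-AngII, with 843 (6.74%) at an unadjusted p under 0.05 for the latter and 45 DESeq2 calls (0.36%).

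Ndufa12-ps is a processed pseudogene of Ndufa12, which codes for an accessory subunit of respiratory complex I. It lies on the plus strand of chromosome 5, chr5:130188395-130188796 (GRCm38), wholly inside the gene body of Rabgef1 and on the same strand. Ndufa12 is at chr10:94198720-94221443 on the plus strand. Over all its 402 bases the pseudogene matched coding bases 37 to 438 of Ndufa12, which end with the stop codon, at 99.5% identity and with 2 differing bases. A stretch of 300 of these bases that holds both differences is shown for each gene, as GENCODE M21 gives it on GRCm38, because a read that covers neither difference matches both genes; capitals mark the differing bases.
Ndufa12: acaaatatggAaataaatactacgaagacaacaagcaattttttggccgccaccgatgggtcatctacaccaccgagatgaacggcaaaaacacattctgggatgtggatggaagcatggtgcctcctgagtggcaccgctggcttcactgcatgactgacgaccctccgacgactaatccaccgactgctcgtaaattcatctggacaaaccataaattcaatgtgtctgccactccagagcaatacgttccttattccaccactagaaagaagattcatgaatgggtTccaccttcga
Ndufa12-ps: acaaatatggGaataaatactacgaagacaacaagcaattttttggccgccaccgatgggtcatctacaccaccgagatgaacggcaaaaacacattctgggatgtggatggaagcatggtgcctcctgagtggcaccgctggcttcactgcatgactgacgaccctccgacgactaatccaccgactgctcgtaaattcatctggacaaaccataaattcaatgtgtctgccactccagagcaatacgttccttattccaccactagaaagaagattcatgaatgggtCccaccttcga
Counted from 1 at the first base shown, the differences from Ndufa12 to its pseudogene are A11G and T290C.

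FPKM of Ndufa12-ps was 82.5, 97.8 and 101 in AngII, 168, 196 and 173 in CDH16KO-AngII and 169, 181 and 187 in GRPR-AngII. Every Cre-positive library lay above every Cre-negative one, and the 2 Cre-positive lines lay in the same range. The pooled log2 fold change was 0.99 (SE 0.12, edgeR adjusted p = 0.0306), with 0.97 (SE 0.13) in CDH16KO-AngII and 1.01 (SE 0.13) in GRPR-AngII against the same AngII libraries.

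Ndufa12 itself had lower values in Cre-positive kidneys. Its FPKM was 78.8, 76.3 and 68.4 in AngII, 45.0, 45.5 and 40.6 in CDH16KO-AngII and 60.5, 45.1 and 44.7 in GRPR-AngII, again with no overlap between Cre-positive and Cre-negative libraries. The pooled log2 fold change of -0.62 (SE 0.13) was not called (edgeR adjusted p = 0.354).

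Of the counts of both genes together, the pseudogene took 21.1%, 24.7% and 27.4% in AngII, 48.9%, 52.5% and 52.2% in CDH16KO-AngII and 41.7%, 50.7% and 51.8% in GRPR-AngII. The 95% Wilson interval of the highest Cre-negative share ran from 26.4% to 28.4% and that of the lowest Cre-positive share from 40.7% to 42.6%, both for counting error only. Mean shares were 24.4% ± 3.14 (SD, n = 3) and 49.6% ± 4.11 (SD, n = 6). The sum of both genes was 182 ± 12.4 CPM in Cre-negative and 178 ± 14.96 CPM in Cre-positive libraries (exact permutation test, p = 0.738), and its log2 fold change when tested as 1 gene was -0.03 (edgeR adjusted p = 0.934). So the split between near-identical sequences differed between the arms while their sum differed by less than the spread between libraries. The labels do not say how reads matching both genes were assigned, and a change in expression of either gene cannot be told apart from a change in where reads were placed. AngII library 3, the 1 AngII library without the second Nnt model, had the highest AngII share, 27.4%. A link between this share and Nnt was not tested.

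**Figure D1:**
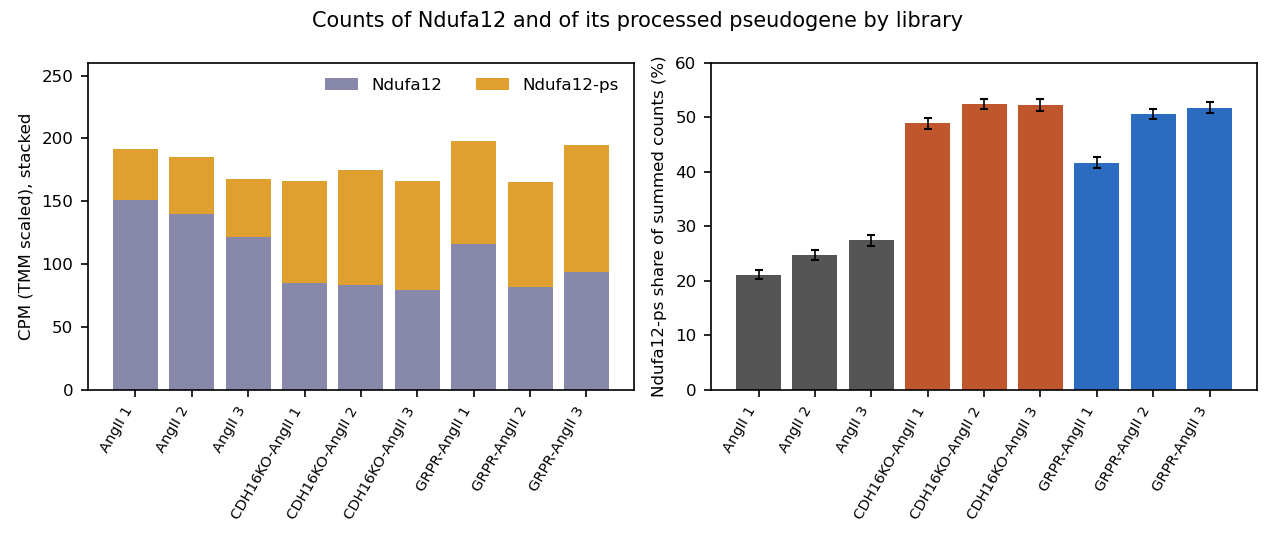
Left, CPM after TMM scaling of Ndufa12 and Ndufa12-ps, stacked, for each of the 9 libraries; right, the pseudogene's percent share of their summed counts with 95% Wilson intervals as whiskers. The stacks are of similar height, from 165 to 198 CPM, while the share is 21.1% to 27.4% in the 3 AngII libraries and 41.7% to 52.5% in the 6 Cre-positive ones.

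Of 209 tested pseudogenes whose parent gene was also tested, 1 pair had both members without overlap between the arms and in opposite directions. The genes around the pseudogene overlapped between the arms: all 5 tested neighbours within 100 kb, Rabgef1 included (log2 fold change 0.07), had overlapping FPKM ranges.

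Col6a6, which codes for a chain of collagen VI, a beaded microfibril collagen of the matrix around cells, had the largest fold change among the named genes. It lies at chr9:105687809-105828160 on the minus strand. FPKM was 0.19, 0.18 and 0.18 in AngII, 1.74, 2.57 and 3.13 in CDH16KO-AngII and 0.57, 1.48 and 0.97 in GRPR-AngII. All 6 Cre-positive libraries were higher than all 3 Cre-negative ones, and those of CDH16KO-AngII were higher than those of GRPR-AngII. The values rest on 83 to 123 counts per Cre-negative library and 314 to 1681 per Cre-positive library. Col6a6 reached the FPKM of 1 that the filter asks for in 4 Cre-positive and 0 Cre-negative libraries, so it was tested only through the arm where it is high. The pooled log2 fold change was 3.12 (SE 0.32, edgeR adjusted p = 0.0180), or 8.72-fold. Against the shared AngII libraries it was 3.77 (SE 0.35) in CDH16KO-AngII and 2.48 (SE 0.33) in GRPR-AngII, and the difference between these was not called (adjusted p = 0.229). Pik3r4, whose gene body begins 152 bases away, had a log2 fold change of -0.10 and overlapping ranges. An antisense model, Gm38314, overlaps 625 bases of Col6a6 in GENCODE M21, and without a stated strand of counting the reads of both cannot be told apart there.

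Neither call held in every subset of libraries. Col6a6 kept an adjusted p under 0.05 in 4 of the 9 fits that left out 1 library. It lost the call without AngII library 1, 2 or 3 (adjusted p = 0.276, 0.224 and 0.0662 with edgeR), without CDH16KO-AngII library 2 (0.0555) and in the fit lacking GRPR-AngII library 3 (0.0729), while its log2 fold change stayed between 2.97 and 3.27. Ndufa12-ps kept the call in 1 of the 9, the fit without CDH16KO-AngII library 1. Its adjusted p was 0.425, 0.224 and 0.0693 without AngII libraries 1, 2 and 3, 0.0569 and 0.0808 without CDH16KO-AngII libraries 2 and 3, and 0.0828, 0.0697 and 0.0814 without GRPR-AngII libraries 1, 2 and 3; its log2 fold change stayed between 0.94 and 1.03. Without both AngII libraries that carry the second Nnt model the log2 fold changes were 3.22 for Col6a6 and 0.93 for Ndufa12-ps, with adjusted p = 0.446 and 0.933 with edgeR and AngII library 3 as the only control, assumed to vary like the other groups.

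The genes named next met the level, range and name conditions but were not called by edgeR. The first group are apolipoproteins, the protein parts of lipoprotein particles. Apoc3, an inhibitor of lipoprotein lipase, had FPKM values of 6.98, 8.28 and 6.13 in AngII, 21.6, 14.4 and 15.4 in CDH16KO-AngII and 14.99, 21.5 and 20.1 in GRPR-AngII. Both lines lay above AngII without overlap, by a pooled log2 fold change of 1.38 (SE 0.20, edgeR adjusted p = 0.125; 3.61e-08 with DESeq2). Apoa4, an apolipoprotein of intestinal lipid transport, had 3.91, 3.42 and 3.42 in AngII, 10.1, 4.82 and 6.40 in CDH16KO-AngII and 7.38, 14.8 and 10.8 in GRPR-AngII, also without overlap (log2 fold change 1.35, SE 0.27, adjusted p = 0.335). Both genes belong to 1 cluster on chromosome 9, 5060 bases apart. Apoa1, the main protein of high-density lipoprotein and 2467 bases from Apoc3, averaged 0.477 FPKM in AngII, 1.42 in the CDH16KO-AngII libraries and 0.983 in the GRPR-AngII ones, with overlapping ranges (log2 fold change 1.37, SE 0.49, adjusted p = 0.540). The other 3 tested neighbours of Apoc3 within 100 kb, Bud13, Zpr1 and Sik3, had log2 fold changes of -0.27, -0.09 and -0.15. Across the 12 tested apolipoprotein-list genes 7 were positive and the median was 0.03, close to 0.00 for all genes. In GENCODE M21, antisense models overlap 48.4% and 30.4% of the Apoa4 gene body, and their reads cannot be told apart from those of Apoa4.

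**Figure D2:**
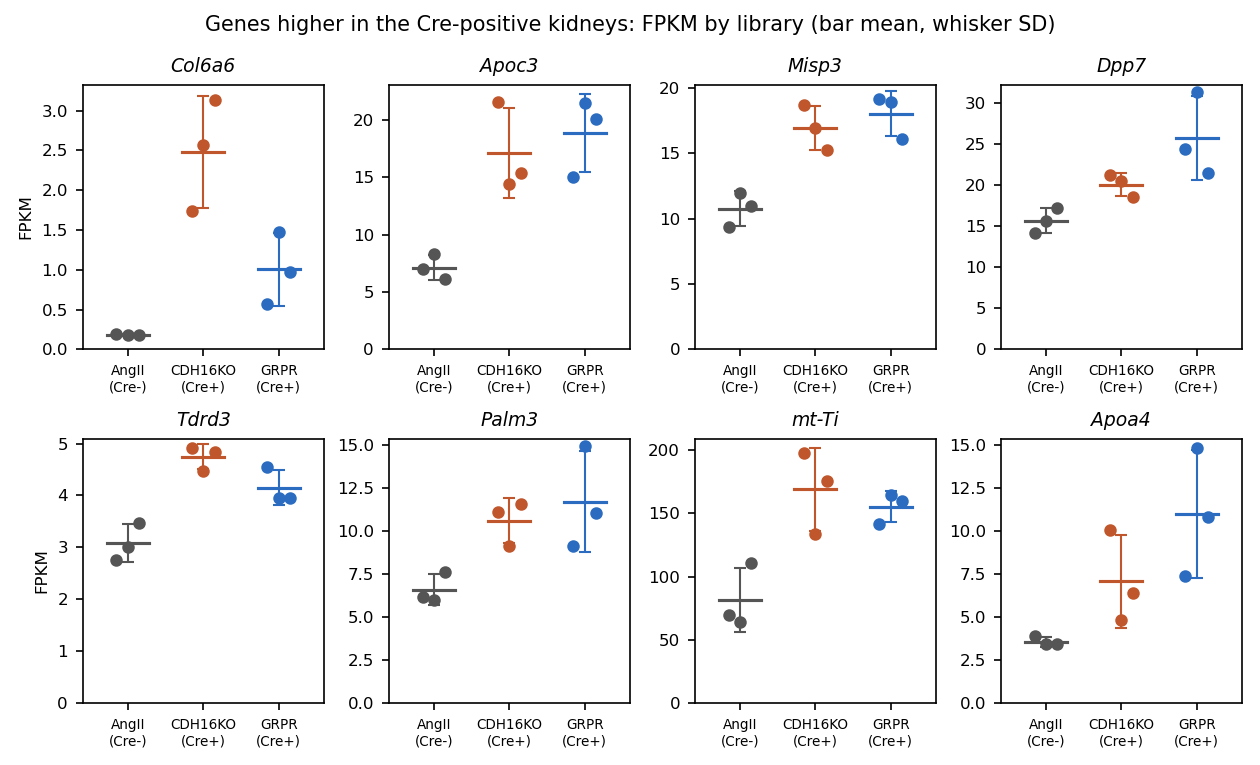
FPKM by library for 8 genes whose 6 Cre-positive values lie above all 3 Cre-negative values; points are libraries, bars means and whiskers SD (n = 3 per group). For Col6a6 the AngII points lie at 0.18 to 0.19 and the lowest Cre-positive point at 0.57; only Col6a6 of these genes was called by edgeR.

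Misp3 and Palm3 are divergent neighbours on chromosome 8, with 9300 bases between their gene bodies; Palm3 belongs to the paralemmins, proteins bound to the inner face of the cell membrane. Misp3 had FPKM values of 9.33, 11.96 and 10.99 in AngII, 18.7, 16.9 and 15.3 in CDH16KO-AngII and 19.1, 18.9 and 16.1 in GRPR-AngII. Its log2 fold change was 0.75 (SE 0.12, edgeR adjusted p = 0.155). Palm3 had 6.14, 6.0 and 7.62 in AngII, 11.1, 9.12 and 11.6 in CDH16KO-AngII and 9.12, 14.9 and 11.1 in GRPR-AngII (log2 fold change 0.81, SE 0.16, adjusted p = 0.335). In both genes each Cre-positive library exceeded each Cre-negative one, and the other 8 tested neighbours of Misp3 within 100 kb had overlapping ranges. Their RefSeq promoters (GRCm38.p6, 250 bases before to 50 after the start, in the direction of the gene) are shown because these neighbours had higher values together; capitals mark GGGCGG on either strand, the letters of a GC box. The windows are chr8:84011671-84011970 on the minus strand for Misp3 and chr8:84021224-84021523 on the plus strand for Palm3. The Misp3 window lies wholly inside the gene body of the deposited Misp3 model, chr8:84010222-84012171. The RefSeq start used for Misp3 therefore differs from the start of the model that was counted.
Misp3: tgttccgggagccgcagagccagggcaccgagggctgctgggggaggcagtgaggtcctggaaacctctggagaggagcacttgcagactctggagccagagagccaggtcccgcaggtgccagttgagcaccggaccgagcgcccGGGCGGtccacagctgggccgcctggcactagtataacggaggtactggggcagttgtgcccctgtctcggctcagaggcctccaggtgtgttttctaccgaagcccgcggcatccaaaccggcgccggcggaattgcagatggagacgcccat
Palm3: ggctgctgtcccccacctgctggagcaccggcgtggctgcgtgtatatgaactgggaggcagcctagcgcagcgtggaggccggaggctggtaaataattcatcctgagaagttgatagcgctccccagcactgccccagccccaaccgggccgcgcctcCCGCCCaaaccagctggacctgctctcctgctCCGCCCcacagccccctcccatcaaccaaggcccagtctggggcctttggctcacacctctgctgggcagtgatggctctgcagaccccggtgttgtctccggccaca
GGGCGG occurred in 35.7% of 32851 RefSeq promoters of this length. The nuclear receptor half-site AGGTCA, found in 16.3% of promoters, was in neither window on either strand. The same held for TATAAA, found in 13.6%. These are letters found in a window and say nothing of binding.

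The other genes with values above all Cre-negative libraries included Dpp7, a lysosomal peptidase, with 14.2, 15.7 and 17.2 FPKM in AngII, 21.2, 20.5 and 18.5 in CDH16KO-AngII and 24.5, 31.4 and 21.5 in GRPR-AngII. Its log2 fold change was 0.59 (SE 0.11, edgeR adjusted p = 0.335). Tdrd3, a Tudor-domain protein that partners topoisomerase III beta, had 2.76 to 3.48 FPKM in AngII and 3.96 to 4.92 in Cre-positive libraries (log2 fold change 0.58, SE 0.12, adjusted p = 0.335). Of the mitochondrial tRNAs, mt-Ti, which carries isoleucine, had 64.5 to 111 FPKM in AngII and 133 to 198 in Cre-positive libraries (log2 fold change 1.05, SE 0.21, adjusted p = 0.335).

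Gsta1 had the lowest adjusted p among the named genes with lower values. It codes for an alpha-class glutathione transferase, which couples glutathione to reactive compounds. Its FPKM was 11.9, 14.7 and 12.2 in AngII, 3.23, 5.41 and 2.23 in CDH16KO-AngII and 4.46, 7.22 and 3.22 in GRPR-AngII. No Cre-positive library reached the lowest Cre-negative one. The pooled log2 fold change was -1.57 (SE 0.26, edgeR adjusted p = 0.177; 3.18e-05 with DESeq2), with -1.81 in CDH16KO-AngII and -1.32 in GRPR-AngII. Gsta2, on the same stretch of chromosome 9, had 289, 259 and 274 in AngII, 160, 165 and 86.8 in CDH16KO-AngII and 220, 157 and 209 in GRPR-AngII (log2 fold change -0.69, SE 0.20, adjusted p = 0.478). The predicted genes Gm10639 and Gm3776 beside them had log2 fold changes of -1.25 and -1.44. At an identity of at least 95%, the best-matching transcripts of Gsta2, Gm10639 and Gm3776 cover 99.4% to 100% of the longest Gsta1 transcript. Counts may therefore be split among these 4 genes, and none of the values is independent of the others. In the 5 Mb window at 75 to 80 Mb of chromosome 9, Elovl5, Gsta2, Gm10639 and Gsta1 made 4 of 28 tested genes without overlap (14.3%, against 3.21% of all genes). The window is shown because it holds Gsta1. Since Gsta1, Gsta2 and Gm10639 share sequence, its share does not count independent genes.

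Cox6b2, an isoform of a cytochrome c oxidase subunit that is typical of testis, had 9.66, 10.1 and 11.7 FPKM in AngII, 5.59, 3.93 and 4.77 in CDH16KO-AngII and 4.32, 4.98 and 6.0 in GRPR-AngII. The lines lay in the same range and below AngII (log2 fold change -1.02, SE 0.18, edgeR adjusted p = 0.237). Pdxk, the kinase that makes pyridoxal phosphate from vitamin B6, had 13.1, 13.6 and 12.6 in AngII, 7.63, 8.27 and 4.72 in CDH16KO-AngII and 8.38, 9.01 and 7.31 in GRPR-AngII (log2 fold change -0.75, SE 0.15, adjusted p = 0.335). A4galt, the synthase of the glycolipid Gb3, had 6.52, 5.34 and 5.89 in AngII, 2.70, 3.04 and 2.97 in CDH16KO-AngII and 4.79, 4.66 and 4.07 in GRPR-AngII. Its values were lowest in CDH16KO-AngII, where it was called against AngII (log2 fold change -0.99, adjusted p = 0.0392), against -0.33 in GRPR-AngII; the difference between the lines was not called (adjusted p = 0.172).

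Gjb1, the gap junction protein connexin 32, had 28.2, 23.7 and 23.4 FPKM in AngII, 13.7, 13.1 and 9.81 in CDH16KO-AngII and 19.1, 17.8 and 20.2 in GRPR-AngII, with a pooled log2 fold change of -0.67 (SE 0.14, edgeR adjusted p = 0.360). Foxq1, a forkhead transcription factor, had 2.06 to 2.62 in AngII and 1.12 to 1.61 in Cre-positive libraries (log2 fold change -0.72, SE 0.16, adjusted p = 0.375); a gene on the opposite strand overlaps 66.1% of it. Vgll4, a cofactor that competes with YAP for TEAD factors, had 2.42 to 3.65 in AngII, 2.07 to 2.25 in CDH16KO-AngII and 1.23 to 1.87 in GRPR-AngII (log2 fold change -0.72, SE 0.16, adjusted p = 0.375). Here GRPR-AngII was the lower line, with -0.98 against -0.46 in CDH16KO-AngII, and the difference was not called (adjusted p = 0.592).

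**Figure D3:**
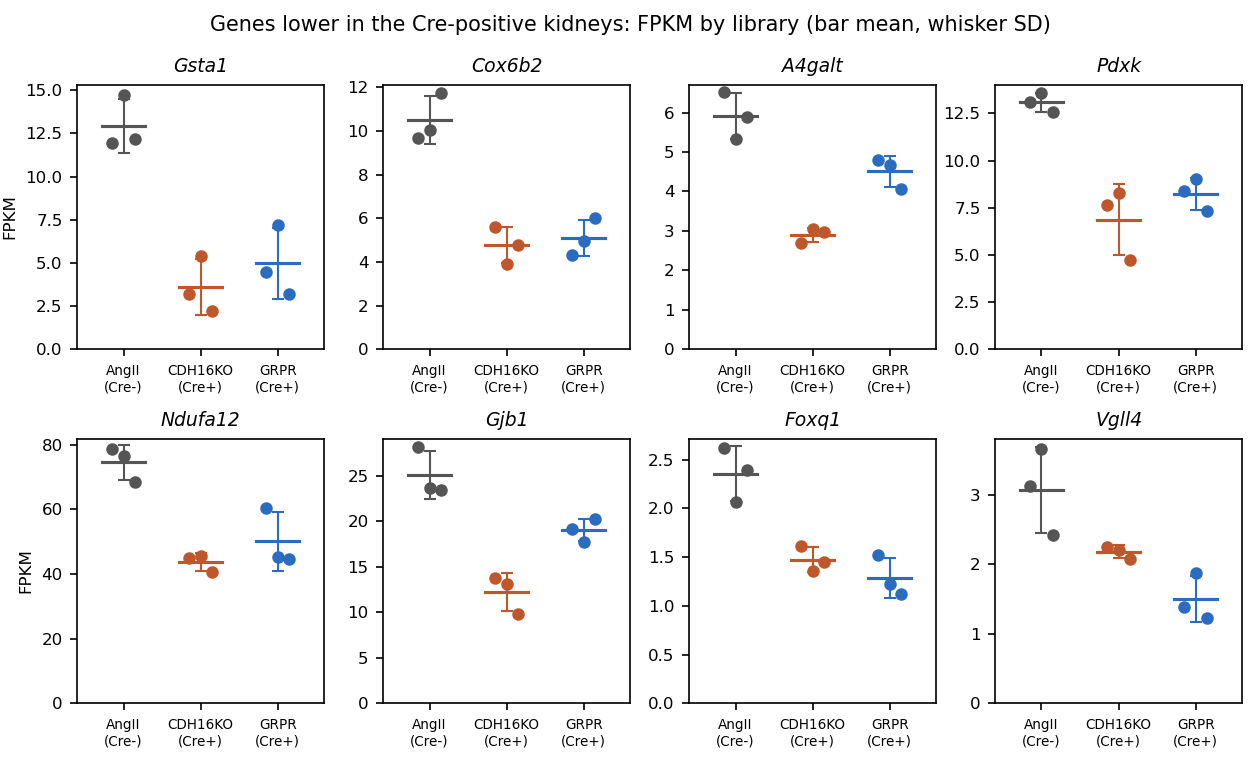
FPKM by library for 8 genes whose 6 Cre-positive values lie below all 3 Cre-negative values; points are libraries, bars means and whiskers SD (n = 3 per group). Gsta1 reaches at most 7.22 in Cre-positive libraries against at least 11.9 in AngII; none of the 8 was called by edgeR.

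**Figure D4:**
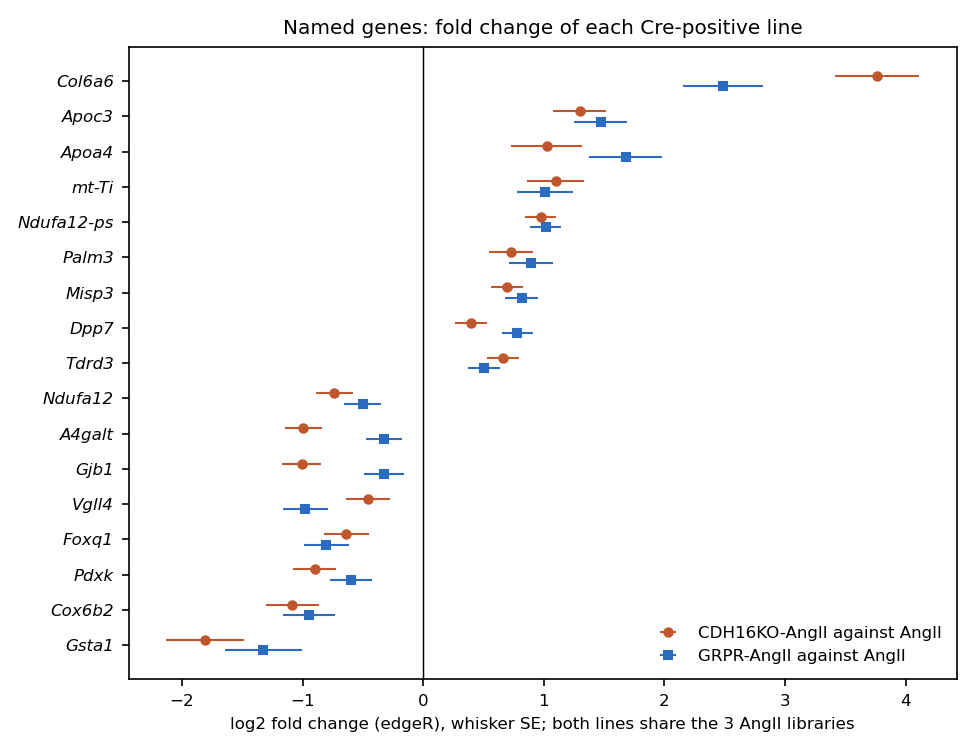
log2 fold change of each Cre-positive line against the 3 AngII libraries, which both lines share, for the 17 genes described by name above; whiskers are SE. Each gene has the same sign in both lines, which follows from the choice of genes without overlap, and the lines lie farthest apart for Col6a6, at 3.77 and 2.48.

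Gene groups were described by counts beside those of all tested genes. Fatty acid oxidation enzymes, which break down fatty acids in mitochondria and peroxisomes and are abundant in proximal tubule, had 44 of 46 tested members with a negative fold change and a median of -0.40, against 0.00 for all genes. Mean log2 CPM over these members was 6.72 to 6.82 in AngII, 5.75 to 6.28 in CDH16KO-AngII and 6.51 to 6.88 in GRPR-AngII. The CDH16KO-AngII libraries lay below the others, and GRPR-AngII library 2 lay above all AngII libraries, so the arms overlapped. None was called in the pooled contrast, and Hacl1, Acox2 and Acot2 fell in CDH16KO-AngII against AngII (edgeR adjusted p = 0.0297, 0.0332 and 0.0392). At an unadjusted p under 0.05, 24 members were lower, against 4.17% of all genes, and 3 lay below AngII without overlap, against 2.21% of all genes: Decr2, Eci1 and Cpt1a, the last being the carnitine transferase that admits long-chain fatty acids to mitochondria. Cpt1a had 27.3, 25.9 and 24.7 FPKM in AngII, 15.5, 19.8 and 15.1 in CDH16KO-AngII and 22.4, 22.4 and 17.7 in GRPR-AngII (log2 fold change -0.42, SE 0.12, edgeR adjusted p = 0.469). The list median was -0.57 in CDH16KO-AngII and -0.13 in GRPR-AngII against the shared controls. Acot2, a mitochondrial acyl-CoA thioesterase, was called between the lines (log2 difference -0.89, adjusted p = 0.0358). Acox2, an oxidase of branched-chain acyl-CoA, had log2 fold changes of -1.31 and -0.09 in CDH16KO-AngII and GRPR-AngII (adjusted p of the difference 0.0510). Hacl1, a lyase of peroxisomal alpha-oxidation, averaged 6.18 FPKM in AngII, 2.21 in the CDH16KO-AngII libraries and 3.94 in the GRPR-AngII ones; 52.99% of its transcript is shared with Gm49387. Since RNA came from whole kidney, fewer cells of a type and less RNA per cell cannot be told apart. Of 41 proximal tubule genes 27 were negative, around a median of -0.07, with the mean log2 CPM of its members at 8.48 to 8.81 in AngII and 8.14 to 8.84 in Cre-positive libraries, and its part in the fatty acid values was not tested. Of that list, Pck1, the gluconeogenic carboxykinase, averaged 989 FPKM in AngII and 432 in Cre-positive libraries with overlap (log2 fold change -1.20, SE 0.30, adjusted p = 0.423). Slc6a18, an amino acid carrier, was at 108 and 152 (log2 fold change 0.55, SE 0.17, adjusted p = 0.489).

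In the glutathione and NRF2 list 26 of 33 tested members were negative (median -0.12), 7 of them at an unadjusted p under 0.05, against 4.17% of all genes, and none called. Beside Gsta1 and Gsta2, which share sequence, these were Nqo1, Gsta3, Nfe2l2, Gsta4 and Mgst1. The list median was -0.33 in CDH16KO-AngII and 0.00 in GRPR-AngII against the shared controls. Mean log2 CPM over its members was 7.14 to 7.33 in AngII, 6.62 to 6.999 in CDH16KO-AngII and 7.14 to 7.19 in GRPR-AngII. On this mean all CDH16KO-AngII libraries lay below AngII, while the GRPR-AngII range overlapped the AngII range. Of the members, 0 were called between the lines, and a difference of the list between them was not tested. Nqo1, the quinone reductase typical of NRF2 activity, had log2 fold changes of -1.02 in CDH16KO-AngII and 0.00 in GRPR-AngII, while Nfe2l2, which codes for NRF2, had -0.33 and -0.42. The ferroptosis and iron list had 17 of 24 negative, with a median of -0.11, or -0.20 in CDH16KO-AngII and -0.05 in GRPR-AngII. At an unadjusted p under 0.05 there was 1 lower member, a share near the 4.17% of all genes. It was Slc40a1, the iron exporter ferroportin, with 3.30 ± 0.0929 FPKM (SD, n = 3) in AngII and 2.48 ± 0.532 (n = 6) in Cre-positive libraries, without overlap. Gclc, which makes the precursor of glutathione, had -0.39 (SE 0.18), or -0.18 without AngII library 2.

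Extracellular matrix and fibrosis genes had 22 of 27 tested members positive, with a median of 0.26. Col6a6 was the called one, and Col6a3, another collagen VI chain, was the second at an unadjusted p under 0.05, against 4.37% of all genes higher. Col6a3 had 0.46 to 0.75 FPKM in AngII and 0.55 to 1.18 in Cre-positive libraries (log2 fold change 0.67, SE 0.29, edgeR adjusted p = 0.573). Like Col6a6, it reached the filter's FPKM of 1 only in Cre-positive libraries. It was therefore tested only through the arm where it is high, and its p is no separate support for a higher matrix list. The members' mean log2 CPM ran from 4.17 to 4.75 in AngII and 4.45 to 5.18 in Cre-positive libraries, so the arms overlapped. AngII library 2 was the lowest at 4.17, with 4.67 and 4.75 in AngII libraries 1 and 3. CDH16KO-AngII library 2 (4.54) and GRPR-AngII library 1 (4.45) lay below AngII libraries 1 and 3. Stromal, pericyte and smooth muscle markers also leaned positive: 12 of 15 were positive, with a median of 0.19. Their mean log2 CPM was 3.91 to 4.33 in AngII, 3.93 to 4.58 in CDH16KO-AngII and 4.19 to 4.41 in GRPR-AngII. AngII library 2 was again the lowest control. None of these markers was at an unadjusted p under 0.05, and their part in the matrix values was not tested.

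Genes of the thick ascending limb and distal convoluted tubule had 16 of 27 positive and a median of 0.08; 4 were higher at an unadjusted p under 0.05, against 4.37% of all genes, and 3 of these did not overlap, against 0.999% of all genes. Trpm6, the distal magnesium channel, had 1.05, 0.76 and 1.17 FPKM in AngII, 2.42, 1.65 and 1.47 in CDH16KO-AngII and 2.31, 1.80 and 1.95 in GRPR-AngII (log2 fold change 1.02, SE 0.21, edgeR adjusted p = 0.351). Pvalb, the calcium-binding parvalbumin of the distal convoluted tubule, had 7.10, 13.7 and 12.1 in AngII, 52.8, 33.7 and 18.0 in CDH16KO-AngII and 22.9, 16.6 and 14.4 in GRPR-AngII (log2 fold change 1.25, SE 0.32, adjusted p = 0.423). Slc8a1, a sodium-calcium exchanger, and Trpm7, a channel kinase related to Trpm6, had log2 fold changes of 0.67 and 0.51. Slc12a3, the thiazide-sensitive cotransporter that defines the distal convoluted tubule, averaged 62.6 and 66.98 FPKM in Cre-negative and Cre-positive libraries.

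Of the collecting duct genes 12 of 19 were negative in each of the principal and the intercalated cell lists, with medians of -0.14 and -0.06. Tfcp2l1, a transcription factor of collecting duct cells, had 22.8 to 28.6 FPKM in AngII and 14.99 to 21.02 in Cre-positive libraries without overlap (log2 fold change -0.46, SE 0.12, edgeR adjusted p = 0.425). Foxi1, the factor that specifies intercalated cells, averaged 15.6 and 9.22 (log2 fold change -0.72, SE 0.19, adjusted p = 0.425), and Car2, carbonic anhydrase II, 137 and 105 (-0.35, SE 0.14). Rhcg, an ammonia channel, had a log2 fold change of 0.24 (SE 0.13), or 0.16 without AngII library 2. Cadherins and junction genes had 18 of 23 negative and a median of -0.20; Cdh3, P-cadherin, lay below AngII without overlap at 0.953 ± 0.266 (SD, n = 6) against 1.67 ± 0.488 FPKM (n = 3). Cldn4, a claudin of the collecting duct, had -0.58 (SE 0.25), or -0.34 without AngII library 3.

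Injury, inflammation and interferon lists held no call. In the tubular injury list 18 of 23 members were negative (median -0.15). Its 1 member below AngII without overlap, against 2.21% of all genes, was Krt8, a keratin of simple epithelium (log2 fold change -0.38, SE 0.13, edgeR adjusted p = 0.540). Spp1, the secreted phosphoprotein osteopontin, had -0.50 (SE 0.21), or -0.29 without AngII library 3. The STING and interferon list had 13 of 27 positive (median -0.07). Its 1 member at an unadjusted p under 0.05 was Rsad2, the antiviral enzyme viperin (0.34, SE 0.15), against 4.37% of all genes higher. Rsad2 had 0.06 in CDH16KO-AngII and 0.61 in GRPR-AngII, and the difference was not called (edgeR adjusted p = 0.448). Irf3, the transcription factor downstream of STING, had 0.32 (SE 0.15). In the inflammatory list 10 of 15 were negative (median -0.07); Il34, a ligand of the CSF1 receptor, had 0.51 (SE 0.23), or 0.33 without AngII library 1, and Tnfaip2 0.46 (SE 0.24). The p53 and DNA damage list was centred at -0.01 with 9 of 23 positive. Bax, a pore-forming driver of apoptosis, averaged 26.0 and 38.5 FPKM (log2 fold change 0.63, SE 0.18, adjusted p = 0.475), and Gdf15, a stress-induced cytokine, 4.51 and 8.67 (0.93, SE 0.27, adjusted p = 0.483), both with overlap. Gdf15 had 0.45 in CDH16KO-AngII and 1.40 in GRPR-AngII, with the difference not called (edgeR adjusted p = 0.448). Clock genes had 16 of 21 negative (median -0.09). The list median was -0.02 in CDH16KO-AngII and -0.17 in GRPR-AngII against the shared controls. Mean log2 CPM over the clock genes was 4.53 to 4.60 in AngII, 4.56 to 4.64 in CDH16KO-AngII and 4.37 to 4.44 in GRPR-AngII. Only the GRPR-AngII libraries thus lay below AngII. Per2, a repressor of the clock, had a pooled log2 fold change of 0.60 (SE 0.31), or 0.95 without AngII library 3. Cry2, its partner, had -0.35 (SE 0.17). In GENCODE M21, genes on the opposite strand overlap 77.0% of the Cry2 gene body and 36.8% of the Tnfaip2 gene body. Without a stated strand of counting, their reads cannot be told apart there.

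**Figure D5:**
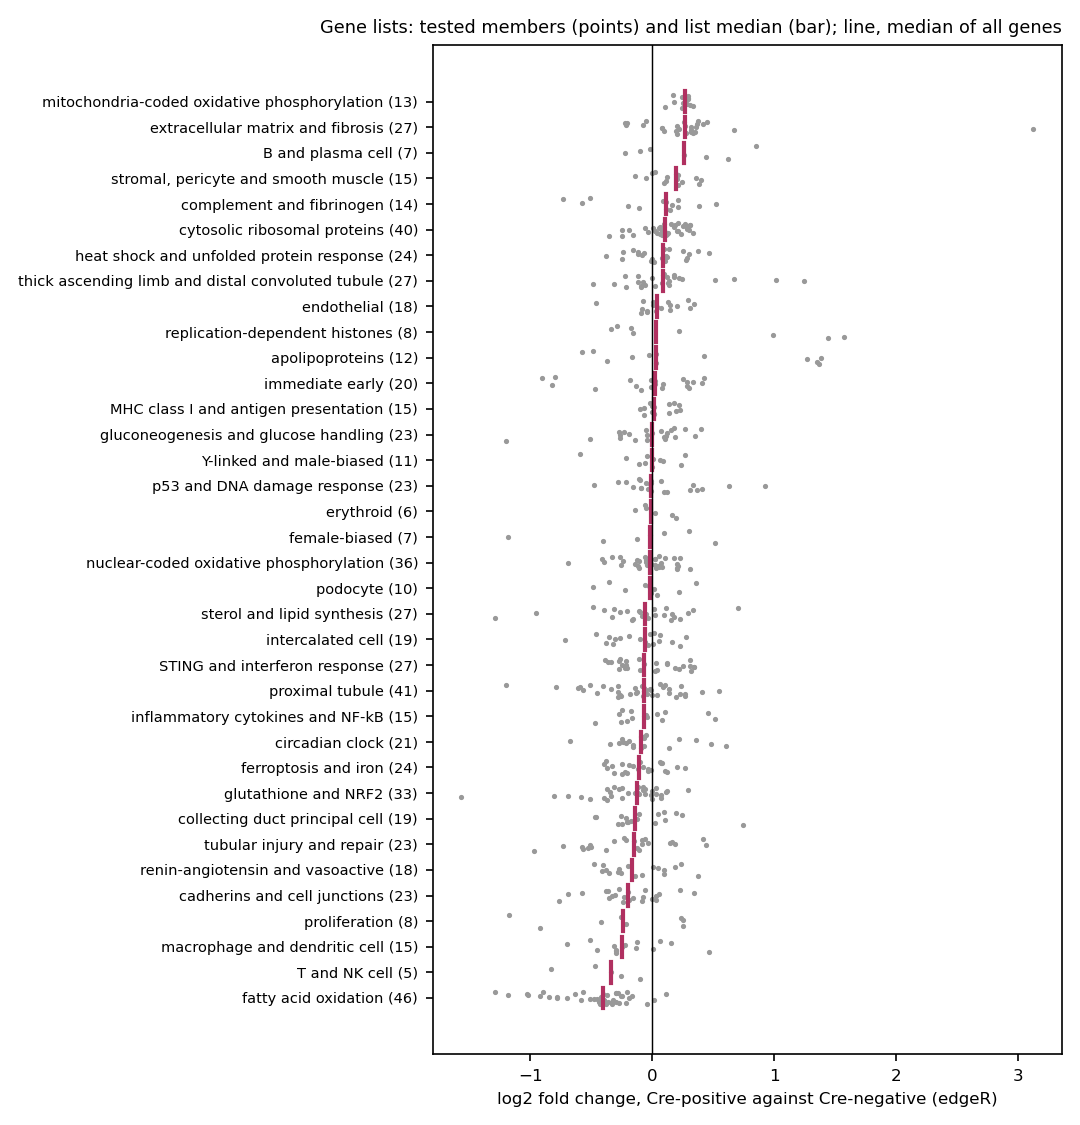
Pooled edgeR log2 fold change of each tested member (points) and list median (bars) for gene lists with at least 5 tested members, number tested in parentheses; the vertical line marks the median of all 12507 genes, 0.00. Fatty acid oxidation is lowest, with a median of -0.40, and Col6a6 is the point at 3.12 in the matrix list.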

How the data were processed

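Kidney RNA of 9 libraries was profiled. RNeasy columns and the SMARTER mRNA-Seq kit were used, per the labels' protocols. GRCm38 and mm10 are the builds in the submitters' processing notes; aligner, counter and strand setting: not given in the sources used here. Per the file headers the deposited table holds FPKM values and counts. The counts the authors deposited are whole numbers and were taken to be expected counts that had been rounded before deposit. The deposited FPKM values, rounded by the authors to 2 decimals, served for the filter, for ranges and for levels.

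All 9 libraries entered 1 fit of edgeR 4.0.16 (R 4.3.3; quasi-likelihood test, TMM scaling, library size equal to the column total, 1 coefficient per group). The pooled contrast is the mean of both Cre-positive groups minus AngII, with Benjamini-Hochberg adjustment over 12507 of 32593 genes and a threshold of 0.05. On simulated data for this contrast over 12507 genes, edgeR recovered 13.4% of simulated 1.5-fold changes, 62.7% at 2-fold and 90.9% at 4-fold, with 8 false calls among 119. The simulation gave both lines the same shift and no other structure, so these shares may be higher than in the real libraries. DESeq2 1.42.0 and limma 3.58.1 were alternatives, as were other filters, scalings, a block for the replicate number and leaving out each library. Replicates differed by more than sampling noise (chi-square per gene 74.2 to 366), so none was counted as a copy. Shared transcript sequence was searched with BLAST+ 2.17.0 in GENCODE M21, and matplotlib 3.10.9 under Python 3.11.15 drew the figures.

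Named genes were Sting1, Grpr, Cdh16 and Acsl4; up to 12 called genes per direction without overlap, reaching a mean FPKM of 2 in some group and without a predicted-gene or pseudogene symbol, filled to 8 per direction by smallest p without the call; and the 2 members of smallest p from each of 14 of the 40 lists. Ndufa12-ps and other genes outside that rule were chosen after their values were seen. The members and lists were chosen with earlier results of these data known. RefSeq promoters matched 33 of the 46 named genes.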

Additional observations from a re-analysis of the deposited data

Results flagged for a closer look

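Within the 6 Cre-positive libraries, 1 library lay far from the other 5 for Pdxk and for Cry2. For Pdxk, CDH16KO-AngII library 3 was lowest. On the log2(CPM + 1) scale it stood at 5.04, with the other libraries between 5.66 and 5.83, and the gap to the next library took 0.784 of the whole range, above Dixon's 95% critical value for 6 values. For Cry2, GRPR-AngII library 1 was lowest at 2.84 on that scale, with the others between 3.30 and 3.45 and a gap of 0.746 of the range. On the FPKM scale the same gaps took 0.604 and 0.528 of the range, under the critical value, so neither library stands apart there. Chance alone puts about 1 group in 20 past this limit.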

How the results depend on the processing

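The pooled contrast called 2 genes, 2 higher and 0 lower. A filter at an FPKM of 0.1, relative log expression scaling, upper quartile scaling and leaving out mitochondria-coded genes kept these counts. The count was 1 (1 higher) with a filter at an FPKM of 5, no filter, column totals as the only scaling, limma voom, 1 coefficient for all Cre-positive libraries, and Ndufa12 summed with its pseudogene, and 0 (0 higher) with limma on log2(FPKM + 1) or log2(FPKM + 0.1). DESeq2 called 95 (61 higher, 34 lower). The replicate block, where number 1, 2 or 3 is a term, called 4 (3 higher, 1 lower). Correlations of same-number libraries ran from -0.13 to 0.32. They were over 0.1 in 6 of 9 pairs, all of numbers 2 and 3 and none of number 1, and in 1 of 18 pairs of different numbers. Since not every pair passed and the labels tie no number to an animal or day, the numbers were not taken to pair the libraries, and the pattern is a hint from the data only. Leaving out 1 library gave 0 to 13 calls (0 to 9 higher, 0 to 4 lower), with 13 without CDH16KO-AngII library 1, 3 without AngII library 3, 1 in the absence of CDH16KO-AngII library 3 or GRPR-AngII library 1 or 2, and 0 when AngII library 1 or 2, CDH16KO-AngII library 2 or GRPR-AngII library 3 was absent. The following subsets were chosen after seeing the data: without the 2 AngII libraries with the second Nnt model 8 genes were called (7 higher, 1 lower), and in the 4 libraries without that model 17 (8 higher, 9 lower). That last subset holds AngII library 3, CDH16KO-AngII library 3 and GRPR-AngII libraries 1 and 3. AngII and CDH16KO-AngII then have 1 library each, assumed to vary like the 2 GRPR-AngII libraries, which alone give the spread, so its counts compare those libraries rather than the groups.

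For CDH16KO-AngII against AngII the 21 calls became 210 with DESeq2, 3 with the filter at 5, 9 without those 2 AngII libraries, 36 in those 4 libraries and 0 to 42 with 1 library left out. For GRPR-AngII against AngII the 0 calls became 45, 7 and 9 with DESeq2 and in those subsets, and 0 to 2 with 1 library left out. Between the lines the 18 calls became 175 with DESeq2, 5 with the filter at 5, 41 with no filter, 9 and 93 in those subsets, and 0 to 50 with 1 library left out. The 401 genes without overlap became 181 with the filter at 5, 668 with no filter and 479 to 1854 with 1 library left out, the most without AngII library 3. With the tested genes held fixed, leaving out a library can only add genes to this count.

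Of the named genes, only Cdh16 changed sign, to 0.015 without the 2 AngII libraries with the second Nnt model. The cause of these changes was not tested. The called Col6a6 rests on at least 83 counts per library. The simulation, which gave both lines the same shift and no other structure, recovered few changes of 1.5-fold (13.4%). Small shared shifts could therefore be missed with 3 libraries a group, and the share found in the real libraries is not known.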

Other observations

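All 13 mitochondria-coded messenger RNAs had a positive pooled log2 fold change with a median of 0.27, and 0 were without overlap between the arms. Both ribosomal RNAs were positive with a median of 0.92. The large one, mt-Rnr2, had 765, 621 and 876 CPM in AngII, 2023, 1017 and 1541 in CDH16KO-AngII and 1057, 1918 and 1462 in GRPR-AngII (log2 fold change 0.995, SE 0.26, edgeR adjusted p = 0.423). Of 21 tested transfer RNAs, 19 were positive with a median of 0.53, and mt-Ti, mt-Tq, mt-Tc and mt-Tp lay above AngII without overlap, against 0.999% of all genes.

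Genes without overlap lay on every chromosome except Y. Their share of tested genes per autosome ran from 2.21% on chromosome 17 to 5.21% on chromosome 18. Of 36 tested mitochondria-coded genes, 5 were without overlap (13.9%). Of 396 windows of 5 Mb with at least 10 tested genes, 172 held none. The window with the highest share, at 65 to 70 Mb of chromosome 5, held 4 of 18 tested genes (22.2%, against 3.21% of all genes, as the top of 396 windows): Rfc1, Ugdh and Klhl5 were lower and Apbb2 was higher. Rps15a-ps6, another pseudogene without overlap, had a log2 fold change of 3.12 (edgeR adjusted p = 0.375), with 0.09 for its parent Rps15a. Of 234 tested pseudogenes 6 were without overlap, a share no higher than the 3.21% of all genes.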
